A study of Homo sapiens with 8 samples.

Results

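The genes described here encode the subunits of the RNA polymerases I, II and III. They were taken from the symbols of the array platform: a gene was a member if its symbol began with POLR, a polymerase number and a letter, and if at least 1 probe set carried that symbol alone. Where a gene had several such probe sets, 1 was chosen by its level: the brightest on average across all 8 arrays, soft and stiff alike, so that the difference between the groups took no part in it. This gave 32 of the 19775 genes measured. Of these, 30 encode subunits: 6 found in Pol I only, 2 shared by Pol I and Pol III, 5 shared by all 3 enzymes, 8 listed with Pol II only and 9 found in Pol III only. The other 2, POLR2J4 and POLR1HASP, match the symbol rule but are a pseudogene and an antisense pseudogene, and they are kept apart below.

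The cells were MDA-MB-231, a human triple-negative breast cancer line, cultured for 2 days on a soft substrate (4 arrays) or on a stiff substrate (4 arrays) in the same serum-containing DMEM/F12 medium. Total RNA of each biological replicate, lettered A to D in either group, was hybridised to 1 Affymetrix array. The stiffness of either substrate in physical units is not given in the sources used here, and 1 line stands for the tumour type. In RNA from whole cultures, fewer cells expressing a gene and less RNA per cell cannot be told apart.

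Pol I transcribes the precursor of the large ribosomal RNAs in the nucleolus, Pol II transcribes messenger RNAs, and Pol III transcribes transfer RNAs, the small 5S ribosomal RNA and other short RNAs. Each enzyme has its own pair of large catalytic subunits, its own stalk and its own initiation subunits, built around small subunits that several of the enzymes share. Pol I and Pol III output sets the supply of ribosomes and transfer RNAs and is high in growing tumour cells.

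With all 8 arrays, 5 of the 6 genes particular to Pol I and 6 of the 9 particular to Pol III were lower on the soft substrate, while none of the Pol II genes passed the test in either direction. Across the 30 subunit genes, 13 fell on soft, none rose and 17 did not pass the threshold of limma's moderated test (Benjamini-Hochberg adjusted p under 0.05 over all 54613 probe sets). Over all genes measured 10.3% were called, 5.93% lower and 4.39% higher on soft, and among genes with a mean level above background 9.61% were called lower. Of the shared subunits, 1 of 2 fell among those of Pol I and Pol III and 1 of 5 among those of all 3 enzymes. With any single array left out, 4 or 5 of the 6 Pol I genes were still called lower, but only 2 to 5 of the 9 Pol III genes. The decreases were small: all 13 were under 2-fold, between 14.0% for POLR1H and 33.6% for POLR1G. The difference between the classes was not tested, since the genes were chosen with results of these arrays known.

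Any pair of arrays had a correlation of 0.993 to 0.998. The second principal component (16.4% of the variance) set stiff A and B apart from stiff C and D, so the main values below are also given against these pairs, called stiff A/B and stiff C/D. The 3′ minus 5′ difference of the GAPDH control probe sets, a measure of RNA integrity, was 0.32 to 0.39 on soft and 0.35 to 0.43 on stiff arrays (log2). For the ACTB control probe sets it was larger, at 1.46 to 1.66 on soft and 1.47 to 1.73 on stiff arrays. All 4 markers listed as present in this line, VIM, CD44, AXL and CAV1, averaged 13.0 or more on the log2 scale. Of these the receptor kinase AXL was called lower on soft (13.0 on soft and 13.2 on stiff; difference -0.23, limma adjusted p = 0.0318), without overlap. Of 5 genes listed as low, the progesterone receptor PGR and the adhesion gene CDH1 lay below the background level of 6.225, the oestrogen receptor ESR1 just above it at 6.41, and the epithelial genes EPCAM and KRT8 well above it at 9.88 and 11.2. Of 6 measured markers of blood, endothelial and smooth muscle cells or fibroblasts, the endothelial adhesion gene PECAM1 was called higher on soft (8.01 on soft and 7.52 on stiff), 3 of the 6 lay above background, and their summed log2 level was 36.25 to 37.08 on soft and 35.79 to 36.70 on stiff arrays. Their part in the results was not tested.

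Promoter sequences of 23 of the 30 subunit genes were found in RefSeq (GRCh38.p14), as windows of 250 bases before and 50 bases after a gene's start, the first-listed window being used for a gene with several; POLR1E, POLR2G, POLR2I, POLR2J, POLR2K, POLR3D and POLR3G are named only. The 4 shown here stand for the classes other than Pol III only. They are POLR1G, the gene that fell most, POLR1C, shared by Pol I and Pol III, POLR2F and POLR2A. POLR2F is the gene of the subunits shared by all 3 enzymes that fell. POLR2A, the largest Pol II subunit, did not pass the test. Capitals mark the letters of the E-box CACGTG, the ETS core CCGGAAG or the palindromic NRF1 motif, each searched on both strands together with TATAAA. All 4 lie on the plus strand, at chr19:45406394-45406693, chr6:43516839-43517138, chr22:37953449-37953748 and chr17:7484116-7484415 in the order of the lines.
POLR1G: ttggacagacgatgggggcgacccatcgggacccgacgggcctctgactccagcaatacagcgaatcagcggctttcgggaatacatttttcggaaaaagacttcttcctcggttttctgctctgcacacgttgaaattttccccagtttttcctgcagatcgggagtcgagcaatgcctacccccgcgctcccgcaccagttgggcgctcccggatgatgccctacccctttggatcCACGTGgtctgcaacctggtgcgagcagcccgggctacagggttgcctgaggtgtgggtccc
POLR1C: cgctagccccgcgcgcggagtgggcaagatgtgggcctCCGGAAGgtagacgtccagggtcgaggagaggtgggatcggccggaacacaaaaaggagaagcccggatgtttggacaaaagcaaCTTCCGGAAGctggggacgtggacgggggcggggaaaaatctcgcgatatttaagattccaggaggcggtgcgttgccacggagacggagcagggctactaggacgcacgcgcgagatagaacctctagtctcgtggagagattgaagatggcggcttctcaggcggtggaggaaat
POLR2F: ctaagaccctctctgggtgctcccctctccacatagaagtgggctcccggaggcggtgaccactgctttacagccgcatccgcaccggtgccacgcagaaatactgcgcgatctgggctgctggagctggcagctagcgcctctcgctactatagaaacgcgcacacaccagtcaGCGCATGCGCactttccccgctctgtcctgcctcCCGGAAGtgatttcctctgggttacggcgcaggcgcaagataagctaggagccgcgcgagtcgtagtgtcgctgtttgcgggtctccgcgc
POLR2A: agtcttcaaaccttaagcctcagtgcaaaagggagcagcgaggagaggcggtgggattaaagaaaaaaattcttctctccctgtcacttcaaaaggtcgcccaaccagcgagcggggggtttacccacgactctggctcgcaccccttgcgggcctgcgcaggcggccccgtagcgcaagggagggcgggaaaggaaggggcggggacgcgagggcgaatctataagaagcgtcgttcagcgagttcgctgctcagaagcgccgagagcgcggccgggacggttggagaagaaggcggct

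The POLR1G window held 1 E-box, starting 12 bases before the gene's start. The POLR1C window held the ETS core at 3 places, 212, 127 and 124 bases before the start, the last 2 being overlapping copies on opposite strands. The POLR2F window held an NRF1 motif 75 bases and an ETS core 41 bases before the start, and the POLR2A window held none of the 4 motifs. The ETS core occurred in 8 of the 23 subunit windows, against 10.7% of the windows of 27305 genes. It was found in 4 of the 10 windows of genes that fell and in 4 of the 13 of genes that did not pass. The E-box occurred in 4 of 23 subunit windows, 2 among those that fell and 2 among the others, against 7.43% of all windows. TATAAA occurred in none of the 23, against 12.0% of all windows, and the NRF1 motif in 1, against 1.36%. These are matches of letters only.

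Of the 5 classes, Pol I had the median farthest below 0. All 4 soft arrays lay below all 4 stiff arrays for each of its 6 genes, an order found for 11.2% of all genes, the opposite order being found for 8.78%. Their median difference was -0.38 on the log2 scale, against 0.0075 over all genes, and the single differences ran from -0.59 to -0.155.

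POLR1G, which pairs with POLR1E in a subcomplex that helps Pol I engage its promoter and elongate, read 8.84, 8.77, 8.99 and 8.87 on soft A to D, against 9.54, 9.65, 9.32 and 9.32 on stiff A to D (log2 RMA level). Every soft value lay under every stiff value, and stiff A and B lay above stiff C and D. The difference was -0.59 (SE 0.0873, adjusted p = 0.00266 by limma), with -0.73 from stiff A/B and -0.45 from stiff C/D.

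Its partner POLR1E read 8.92, 8.96, 9.20 and 9.0 on soft A to D, against 9.51, 9.56, 9.53 and 9.47 on stiff A to D. The groups did not overlap, and soft C stood nearest to the stiff arrays. The difference was -0.50 (SE 0.0714, adjusted p = 0.00226 by limma), a decrease of 29.2%, and was nearly the same against either pair of stiff arrays (-0.515 and -0.48). Both of its other probe sets were dimmer and also lower (-0.62 and -0.735, limma adjusted p = 0.000332 and 0.0189). The dimmest averaged 6.02 on soft, below the background level of 6.225, and 6.75 on stiff. It thus passed that level only through the stiff arrays.

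POLR1F, a stalk subunit that contacts the initiation factor RRN3, averaged 9.91 ± 0.11 on soft and 10.31 ± 0.03 on stiff (SD, n = 4 each; difference -0.40, limma adjusted p = 0.00534). A dimmer probe set of POLR1F differed by -0.095 and did not pass (adjusted p = 0.597).

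The catalytic pair moved less evenly. POLR1B, the second-largest subunit, averaged 9.62 ± 0.10 on soft and 9.98 ± 0.08 on stiff (SD, n = 4 each; difference -0.36, limma adjusted p = 0.0108), and 2 of its 3 other probe sets fell too. The dimmer of these 2 averaged 6.145 on soft, below the background level of 6.225, and 6.58 on stiff. From stiff A/B the difference of the POLR1B probe set read was -0.29, which no longer passed (limma adjusted p = 0.1). POLR1A, the largest subunit, read 8.15, 8.17, 8.25 and 8.11 on soft A to D, against 8.32, 8.31, 8.32 and 8.35 on stiff A to D. Although these groups did not overlap, its difference of -0.155 did not pass (limma adjusted p = 0.128). With limma run only on probe sets above the background level or the median level, it did (adjusted p = 0.0352 and 0.0422). This made 6 of 6 Pol I genes lower, where 16.3% and 14.4% of all genes kept were called lower. The other POLR1A probe sets gave -0.26 (adjusted p = 0.0269) and 0.005 (adjusted p = 0.977), so the call on POLR1A differed from probe set to probe set.

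POLR1H, the small zinc-binding subunit that takes part in RNA cleavage, averaged 10.25 ± 0.03 on soft and 10.46 ± 0.02 on stiff (SD, n = 4 each; difference -0.22, limma adjusted p = 0.0311). Its other bright probe set fell by 0.31 (adjusted p = 0.00837), and both carry a suffix marking probes that can match several transcripts. Among the other called genes, POLR1B, POLR3D and POLR3K were also read on probe sets with such a suffix. The brightest POLR1H probe set without that suffix lay below background and differed by 0.02 (adjusted p = 0.905). The call was held without soft A or without soft C (adjusted p = 0.048 and 0.0457) and was lost without any of the other 6 arrays (adjusted p = 0.0595 to 0.0884).

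**Figure D1:**
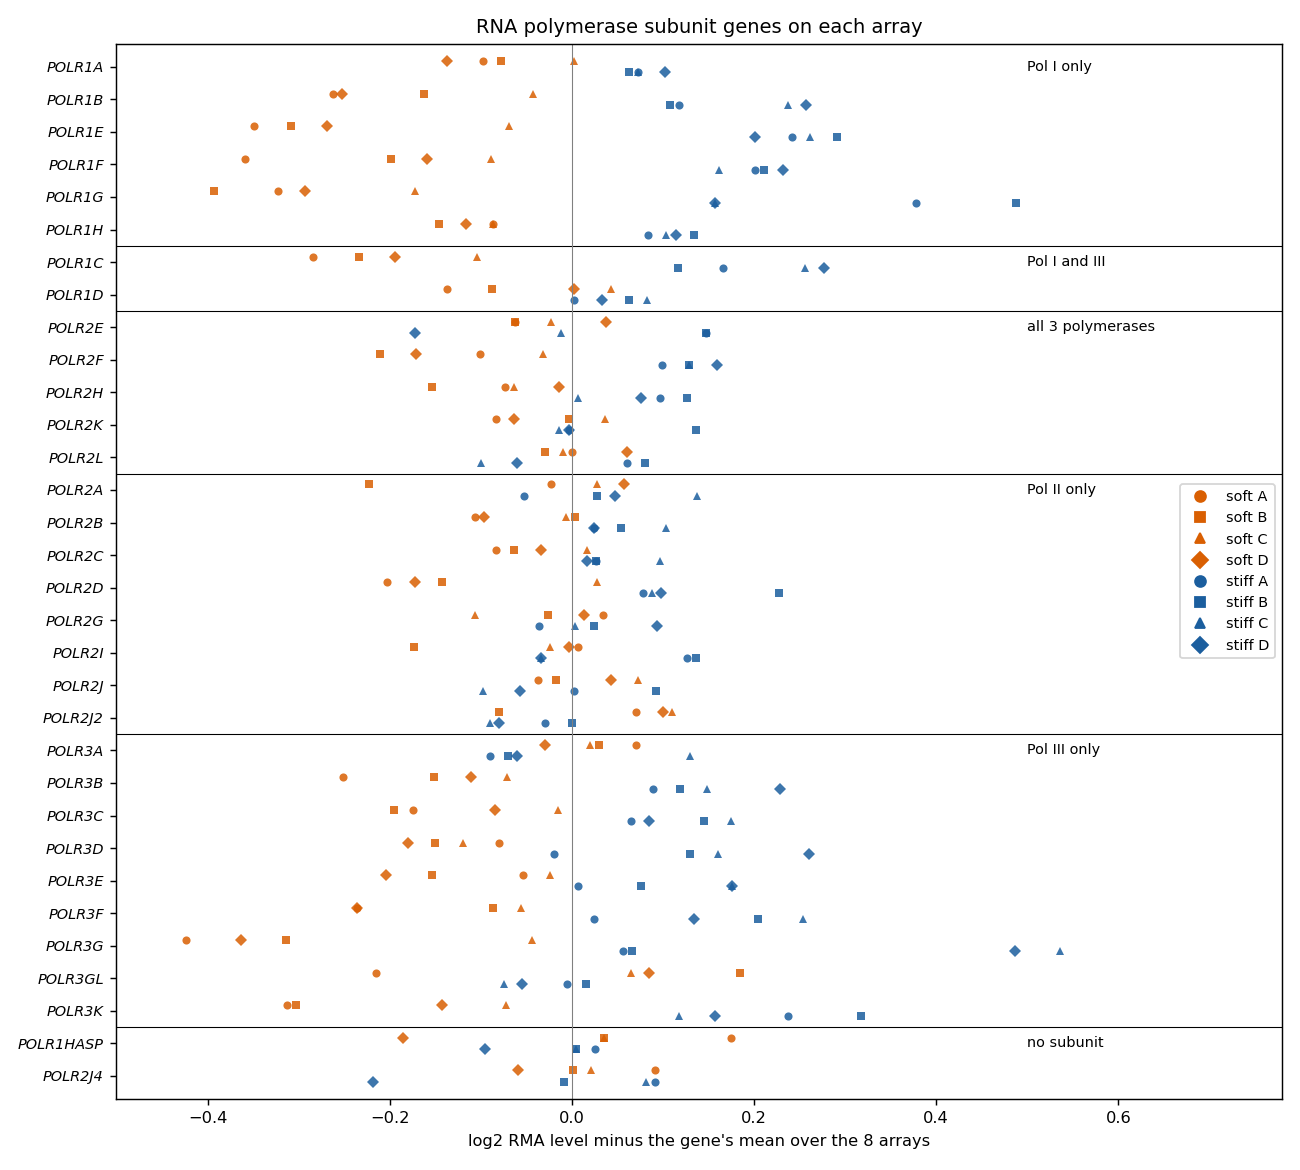
Each point is the log2 RMA level of a gene on 1 array minus that gene's mean over the 8 arrays (x axis), with the 30 subunit genes and 2 non-subunit matches on the y axis in blocks by polymerase; orange points are soft and blue points stiff arrays, and shapes give replicates A to D. For all 6 Pol I genes the soft and stiff points are separate, and POLR1G and POLR3G show stiff arrays falling into pairs, A with B and C with D.

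The subunits that Pol I shares with other enzymes divided. POLR1C and POLR1D form the assembly platform of Pol I and Pol III. POLR1C read 9.58, 9.63, 9.76 and 9.67 on soft A to D, against 10.03, 9.98, 10.12 and 10.14 on stiff A to D. The groups were well apart, and the difference was -0.41 (SE 0.0661, adjusted p = 0.0042 by limma), a decrease of 24.6%; its other probe set fell by 0.25. POLR1D, its partner, averaged 10.98 ± 0.08 on soft and 11.07 ± 0.03 on stiff (SD, n = 4 each), with overlapping arrays and a difference of -0.09 (limma adjusted p = 0.444).

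Of the 5 subunits common to all 3 enzymes, POLR2F read 9.71, 9.60, 9.78 and 9.64 on soft A to D, against 9.91, 9.94, 9.94 and 9.97 on stiff A to D. Its difference was -0.26 (SE 0.0613, adjusted p = 0.0246 by limma), and the call was lost without soft B, soft D, stiff B, stiff C or stiff D (adjusted p = 0.058 to 0.07). POLR2E, POLR2H, POLR2K and POLR2L differed by -0.055, -0.15, -0.0575 and 0.01 and did not pass (limma adjusted p = 0.152 to 0.95). For POLR2H the groups did not overlap. The probe sets read for POLR2E, POLR2K and POLR2L carry the suffix marking probes that can match several transcripts. Dimmer probe sets without it gave -0.2875 for POLR2K (limma adjusted p = 0.0936) and -0.24 for POLR2L, which was called lower (adjusted p = 0.0492). The other POLR2E probe set, also with the suffix, gave 0.07 (adjusted p = 0.64). The median of the 5 genes was -0.0575 with the probe sets read here, and other choices are given in the closing section.

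No Pol II gene was called in either direction. The median difference of the 8 genes was -0.08, with single values from -0.245 to 0.10, and 0 of 8 passed limma's adjusted threshold, while at an unadjusted p under 0.05 only POLR2D did. All soft arrays lay below all stiff arrays at 2 of the 8 genes, POLR2B and POLR2D, an order found for 11.2% of all genes. The alternatives in which a Pol II gene was called are given in the closing section.

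POLR2A, the largest subunit, whose repetitive C-terminal tail couples transcription to RNA processing, read 9.37, 9.17, 9.42 and 9.45 on soft A to D, against 9.34, 9.42, 9.53 and 9.44 on stiff A to D. The groups overlapped, with soft B lowest. The difference was -0.08 (SE 0.076, adjusted p = 0.596 by limma). POLR2B, the second-largest subunit, differed by -0.10 (adjusted p = 0.341) without overlap, at 12.53 to 12.64 on soft and 12.66 to 12.74 on stiff. The POLR2B probe set read carries the suffix of shared probes. Another bright one without it gave -0.0275 (limma adjusted p = 0.827).

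POLR2D, which forms the Pol II stalk with POLR2G, came nearest to the threshold, at 8.19 ± 0.10 on soft and 8.435 ± 0.07 on stiff (SD, n = 4 each; limma adjusted p = 0.0522). Its second probe set gave -0.27 (adjusted p = 0.0585). POLR2G itself differed by -0.0425 (adjusted p = 0.746), with overlapping arrays. POLR2C and POLR2J, the Pol II counterparts of the POLR1C and POLR1D pair, differed by -0.08 and 0.03, and POLR2I by -0.0975, none past the threshold.

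POLR2J2, a near copy of POLR2J, differed by 0.10 (limma adjusted p = 0.401). The POLR2J copies share sequence, and the POLR2J probe set carries the mark of shared probes, so the reading cannot be assigned to 1 copy with certainty. Beyond these, 11 probe sets on the platform list a POLR symbol among several symbols and were not used, and POLR2J3 and POLR2M were listed only there. The pseudogenes POLR2J4 and POLR1HASP differed by 0.0275 and 0.03 (limma adjusted p = 0.88 and 0.87), POLR1HASP below the background level.

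**Figure D2:**
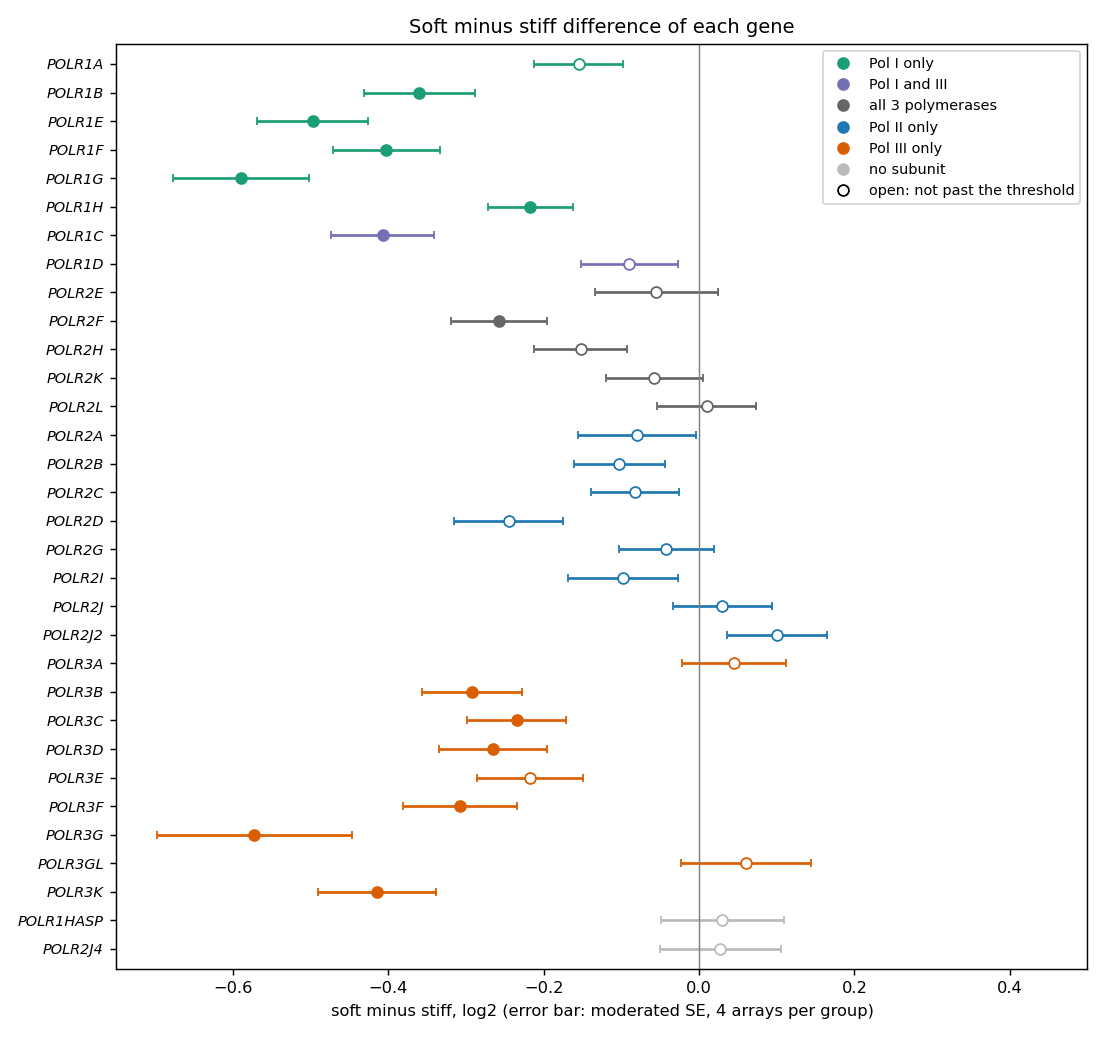
Soft minus stiff difference of each gene on the log2 scale (x axis; point: limma estimate from 4 arrays per group, bar: moderated SE), coloured by polymerase class, with filled points past the adjusted threshold. The 13 filled points all lie below 0, the Pol II points are all open, and the Pol III block holds both POLR3G at -0.57 and its paralog POLR3GL at 0.06.

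Of the 9 Pol III genes, 6 fell, with a median difference of -0.265 over all 9 and no overlap between the groups at 7. The 3 that did not pass were POLR3A, POLR3E and POLR3GL. The count of 6 rested on single arrays: it was 2 without soft A or without stiff D, 3 without soft D, stiff B or stiff C, 1 with stiff A/B alone and 2 with stiff C/D alone.

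POLR3K, a small subunit used in RNA cleavage and termination, read 9.69, 9.70, 9.93 and 9.86 on soft A to D, against 10.24, 10.32, 10.12 and 10.16 on stiff A to D. The groups did not overlap, and the difference was -0.415 (SE 0.0761, adjusted p = 0.00774 by limma). From stiff A/B it was -0.485 (adjusted p = 0.024), and from stiff C/D -0.345, which did not pass (adjusted p = 0.0777). The only POLR3K probe set without the suffix of shared probes lay below background and gave -0.37 (limma adjusted p = 0.0347).

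POLR3C, POLR3F and POLR3G (or POLR3GL in its place) form the subcomplex that recruits Pol III to promoters. POLR3F averaged 8.79 ± 0.10 on soft and 9.10 ± 0.10 on stiff (SD, n = 4 each; difference -0.31, limma adjusted p = 0.0251), and POLR3C 9.61 ± 0.08 on soft and 9.84 ± 0.05 on stiff (difference -0.235, limma adjusted p = 0.0431). A second probe set of POLR3C gave the same difference (adjusted p = 0.0482). POLR3F lost its call without soft A, soft D, stiff B, stiff C or stiff D (adjusted p = 0.056 to 0.0745), and POLR3C without any single array other than soft C (adjusted p = 0.0651 to 0.112).

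POLR3G, known for its high expression in stem and transformed cells, read 8.51, 8.62, 8.89 and 8.57 on soft A to D, against 8.99, 9.0, 9.47 and 9.42 on stiff A to D. All soft values lay below all stiff values, with soft C close under stiff A. The difference was -0.57 (SE 0.126, adjusted p = 0.0171 by limma), and it was lost by a narrow margin without soft A (adjusted p = 0.052). From stiff A/B it was -0.35 (adjusted p = 0.119), and from stiff C/D -0.80 (adjusted p = 0.00866). A second probe set of POLR3G gave -0.36 (adjusted p = 0.058).

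POLR3GL, the paralog that takes the place of POLR3G in a separate form of Pol III, read 10.10, 10.50, 10.38 and 10.40 on soft A to D, against 10.31, 10.33, 10.24 and 10.26 on stiff A to D. The groups overlapped, and the difference was 0.06 (SE 0.0838, adjusted p = 0.737 by limma). Within each array, the log2 level of POLR3G minus that of POLR3GL, centred on its mean over the 8 arrays, was -0.21, -0.50, -0.11 and -0.45 on soft A to D, against 0.0612, 0.0512, 0.61 and 0.54 on stiff A to D. All 4 soft arrays thus lay below all 4 stiff arrays, with a shift of -0.63. It is given without a test, since the pair was singled out with these values known and POLR3G by itself already separates the groups. From stiff A/B the shift was -0.37, and from stiff C/D it was -0.89.

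**Figure D3:**
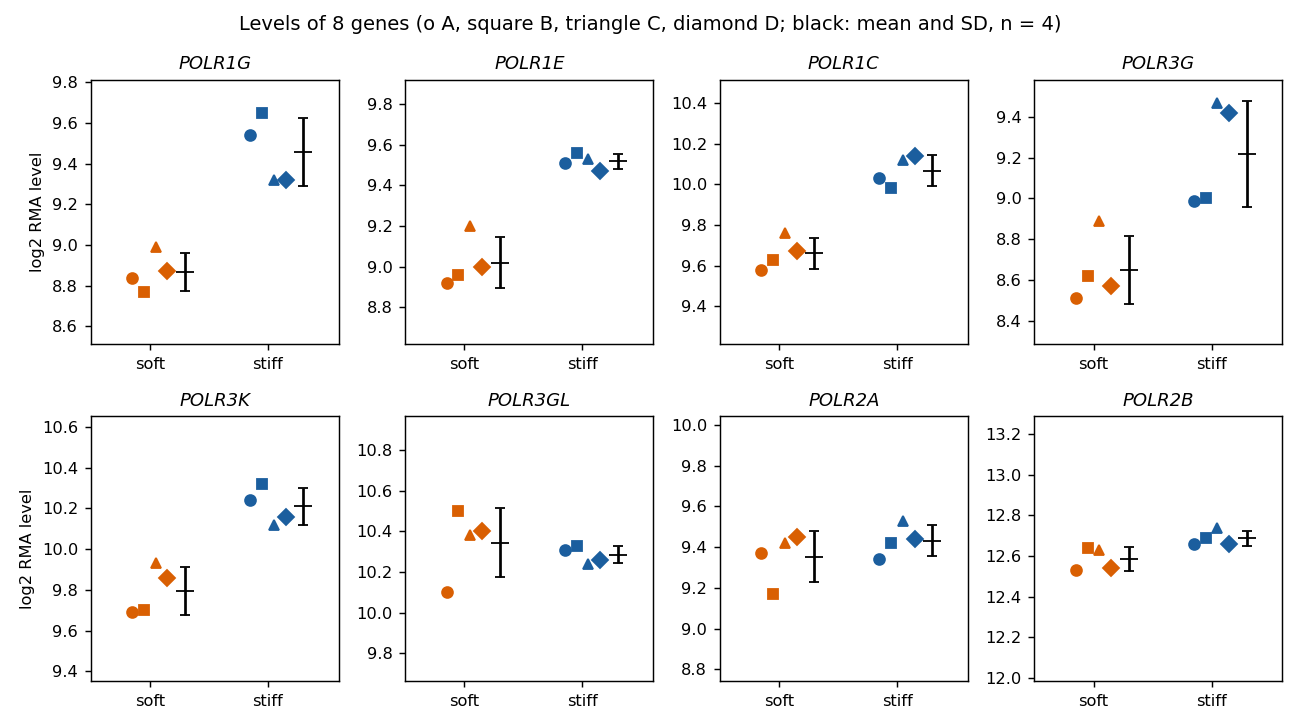
Log2 RMA level (y axis, each panel spanning the same range around its gene's mean) of 8 genes on the 4 soft arrays (orange, left) and 4 stiff arrays (blue, right), with replicate shapes as labelled and the mean and SD in black. POLR1G, POLR1E, POLR1C, POLR3G and POLR3K separate the groups, POLR2B does so by a small gap, and POLR3GL and POLR2A overlap.

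The catalytic subunits of Pol III differed from each other. POLR3B, the second-largest, averaged 9.665 ± 0.08 on soft and 9.96 ± 0.06 on stiff (SD, n = 4 each; difference -0.29, limma adjusted p = 0.0171), a call lost without stiff D (adjusted p = 0.0549). POLR3A, the largest, averaged 9.03 ± 0.04 on soft and 8.99 ± 0.10 on stiff (SD, n = 4 each; difference 0.045, limma adjusted p = 0.754), with its second bright probe set at -0.08 (adjusted p = 0.557). In both Pol I and Pol III, then, the second-largest subunit passed the threshold and the probe set read for the largest did not.

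POLR3D and POLR3E form the Pol III counterpart of the POLR1E and POLR1G pair. POLR3D read 7.59, 7.52, 7.55 and 7.49 on soft A to D, against 7.65, 7.80, 7.83 and 7.93 on stiff A to D (difference -0.265, limma adjusted p = 0.0377). It kept its call only without stiff A among the 8 arrays left out in turn (adjusted p = 0.0237, and 0.0555 to 0.107 otherwise). POLR3E, with no overlap between groups, differed by -0.22 and missed the threshold (adjusted p = 0.0751). A further Pol III subunit, CRCP, which carries no POLR symbol, differed by -0.105 (adjusted p = 0.438).

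The mean Pol I difference was -0.38 from stiff A/B and -0.36 from stiff C/D. That of Pol III was -0.20 and -0.29, and that of Pol II -0.08 and -0.05. All 13 called genes had a negative difference against both pairs, which follows from all their soft arrays lying below all their stiff arrays. Among the soft arrays, soft C was the highest at 11 of the 13 called genes and at 19 of all 30 subunit genes, and it also lay nearest to the stiff arrays on the first principal component of all probe sets (-9.41, against -35.3 to -17.8 for the other soft arrays and 18.3 to 24.0 for the stiff arrays).

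**Figure D4:**
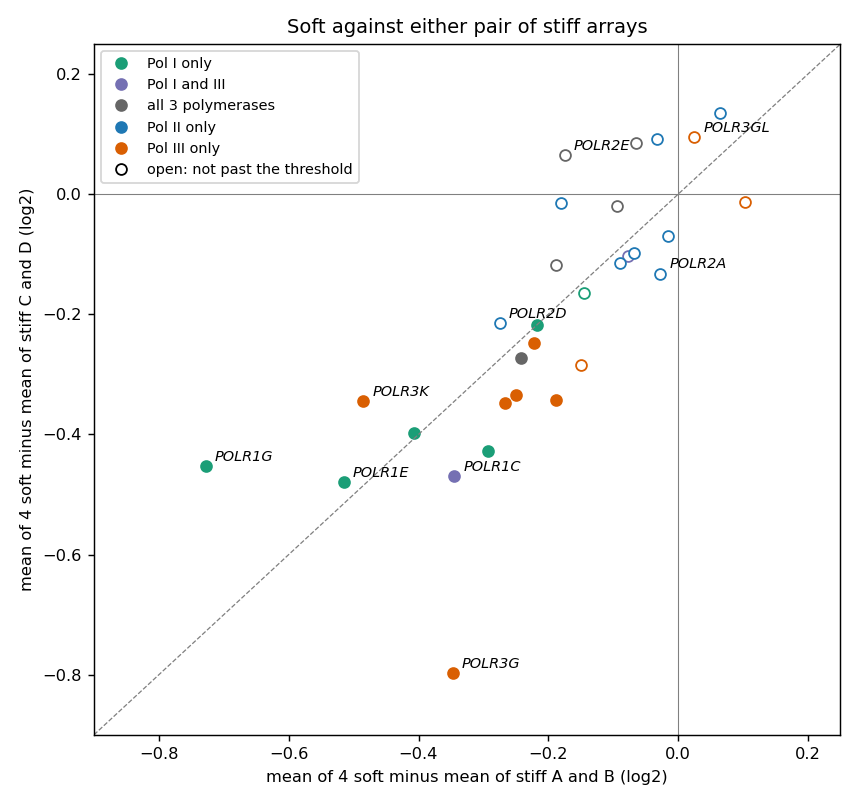
Difference of the 4 soft arrays from stiff A/B (x axis) and from stiff C/D (y axis), in log2 units, for the 30 subunit genes, coloured by polymerase class, filled where the gene passed the threshold with all arrays; the dashed line marks equal values. All 13 filled points lie below 0 on both axes, as genes without overlap between the groups must when lower on soft. POLR1G at -0.73 and -0.45 and POLR3G at -0.35 and -0.80 are farthest from the line.

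The count of 13 was sensitive to single arrays. It was 8 without soft D, stiff B or stiff C, 7 without stiff D, 9 without soft A or soft B, 11 without stiff A, and with stiff A/B alone it was 5, with stiff C/D alone 7. The share of all genes called lower moved too, being 3.59% without stiff D and 2.66% with stiff A/B alone. POLR1E, POLR1F, POLR1G and POLR1C passed the threshold in every one of the 20 alternatives run.

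Of 91 other measured genes of the transcription machinery, 10 fell (11.0%) and none rose, with a median difference of -0.0975. That share is near the 9.61% called lower among all genes above background. Of 8 Pol I initiation and termination genes 2 fell, both without overlap: TAF1A, a subunit of the selectivity factor that positions Pol I, read 8.99, 9.22, 9.33 and 9.13 on soft A to D, against 9.65, 9.72, 9.80 and 9.70 on stiff A to D (difference -0.55, limma adjusted p = 0.00217). The terminator-binding TTF1 fell by 0.25 (adjusted p = 0.0229). The nucleolar factor UBTF and the initiation factor RRN3 did not pass, at -0.105 for UBTF (adjusted p = 0.296) and -0.15 for RRN3 (adjusted p = 0.414).

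Of 17 Pol III initiation and regulation genes 1 fell (5.88%, against 5.93% of all genes). This was SNAPC1, a subunit of the complex that binds promoters of small nuclear RNA genes, averaging 10.9 on soft and 11.4 on stiff (difference -0.52, limma adjusted p = 0.00446). The Pol III repressor MAF1 differed by 0.14 (adjusted p = 0.273). Of 17 general transcription factors of Pol II 3 fell, with the TFIIH helicase ERCC2 at -0.29 and GTF2A1 at -0.215 the largest. In the pausing and elongation list 1 of 22 fell, the histone chaperone SUPT16H (-0.25), and in the list of tail phosphatases and polymerase assembly factors 1 of 14, the assembly GTPase GPN3 (-0.25).

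The mitochondrial polymerase POLRMT, which is a single-chain enzyme unrelated to the 3 nuclear ones, differed by 0.045 (limma adjusted p = 0.763). Of the 6 genes of mitochondrial transcription 2 fell, TFAM, which packages mitochondrial DNA, by 0.52 (adjusted p = 0.00412) and TFB2M by 0.285 (adjusted p = 0.0152). None of 7 MYC and RB family regulators passed limma's adjusted threshold. MYC, a known activator of Pol I and Pol III genes, read 11.38, 11.23, 11.32 and 11.25 on soft A to D, against 11.11, 11.13, 11.64 and 11.55 on stiff A to D (difference -0.0625, adjusted p = 0.812). Its soft values lay between those of stiff A and B and those of stiff C and D.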

How the data were processed

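Per the labels, total RNA of 8 MDA-MB-231 cultures, 4 on soft and 4 on stiff substrate, was labelled with biotin and hybridised to Affymetrix arrays. The deposited values are log2 levels per probe set after RMA, named per the submitters' processing notes; which program ran RMA, and on which probe definition, is not given in the sources used here. RMA equalises the distributions of the arrays, so a change common to all genes cannot be seen, and it compresses differences of dim probe sets. The log2 scale was read from the values. Of 54675 probe sets, 62 controls were left out of the fit. Of the remaining 54613, the platform table gave 1 symbol for 41091, several for 1801 and none for 11721.

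Soft and stiff were compared with limma 3.58.1 (R 4.3.3; lmFit and eBayes without trend, no filter), with two-sided tests and p-values adjusted over all 54613 probe sets by Benjamini and Hochberg's method. The background level was the 95th percentile of 16 genes taken as silent in breast cells. Data of 54613 probe sets were simulated with 100 soft-against-stiff changes of each size. Of changes of 0.5 (log2) 57% were recovered and of changes of 1 (log2) 93%, and 5 unchanged probe sets were called. Noise was drawn separately for each probe set. Changes under 0.5, the size of most differences reported here, were not simulated. The changed probe sets were a far smaller share than the 10.3% of genes called in the data. The number of arrays limits the precision, and p-values measure the spread between these replicates, which the labels call biological without saying how cultures were separated.

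Genes, lists and alternatives were chosen with earlier results of these data known. All members past the threshold, the largest subunits and the paralogs are named, and up to 2 called genes per list and direction; MYC, MAF1, UBTF, RRN3, CRCP and POLRMT were added after their values were seen. Alternatives were a replicate block, scalings, filters, variance models, other probe sets per gene and left-out arrays.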

Additional observations from a re-analysis of the deposited data

Results flagged for a closer look

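Of 64 groups of 4 arrays checked over the 32 genes, 6 held 1 array set apart from the other 3 by most of the group's range, where chance gives about 1 in 20. None of them belongs to a gene that passed the threshold. Stiff B was high for POLR2K (11.48, others 11.33 to 11.34) and for POLR2D (8.54, others 8.39 to 8.41). Stiff C was high for POLR2C (10.88, others 10.80 to 10.81) and for POLR3A (9.14, others 8.92 to 8.95). Soft B was low for POLR2I (10.85, others 11.00 to 11.03), and stiff D was low for POLR1HASP (5.62, others 5.72 to 5.74).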

How the results depend on the processing

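The count of genes higher on soft was 0 in all 20 alternatives. The count of genes lower on soft, 13 with all arrays, was 7 to 13 when single arrays were left out. It was 5 when stiff A/B stood alone as stiff arrays, 7 when stiff C/D did, and 9 to 17 in the other alternatives. The count of 17 came from the filter on background level, where 16.3% of all genes kept were called lower. The replicate block gave 9. Deviations of same-lettered arrays from their group means correlated at 0.12, -0.12, 0.05 and -0.04 for A to D. Only soft A correlated best with the stiff array of its own letter. With 4 arrays per group, these values cannot show whether same-lettered cultures were paired. A Pol II gene was called lower in 6 of the 20 alternatives, POLR2D each time. POLR1A was called lower in 2, the filters on background and on median level, where limma was run on fewer probe sets.

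The median of Pol II genes was -0.102 to -0.0483 with single arrays left out. Without probe sets marked as shared it was -0.0425, and POLR2C, POLR2I and POLR2J, which have no other probe sets, dropped out. For the subunits common to all 3 enzymes the median was -0.122 to -0.0217 with single arrays left out and -0.175 with stiff A/B alone. It was -0.15 when each gene's probe sets were averaged and -0.25 without shared probe sets, which left out POLR2E. The Pol III median was -0.335 with stiff C/D alone, and the Pol I median was -0.27 when probe sets were averaged. Directions were followed for the called genes, the largest subunits and the paralogs, with POLR2J4. Among these, POLR1H turned (0.02) without shared probe sets, which leaves it a dim probe set. POLR3A turned (-0.0125) with stiff C/D alone, and POLR2J (-0.0325) and POLR2J4 (-0.0275) with stiff A/B alone. POLR2J4 also turned without stiff D, its values running from -0.0408 to 0.0625 over the left-out arrays. The other genes were not followed through all alternatives, but POLR2E turned (0.065) with stiff C/D alone and POLR2L (-0.065) with stiff A/B alone. The causes of the other changes were not tested. The background level of 6.225 limits readings of dim probe sets.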
